A study of Mus musculus with 15 samples.

Results

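Neurexins, neuroligins and neurexophilin 1 were followed over postnatal life in fast-spiking interneurons of the mouse somatosensory cortex. The genes were Nrxn2, Nrxn3, Nlgn1, Nlgn2, Nlgn3 and Nxph1, and the members were all probe sets annotated to 1 of these symbols alone, 17 of 34945 single-gene probe sets on the array. They stand for 6 of 18193 annotated genes. Of the 17, 11 read over 5 on the log2 scale in at least 3 of 15 arrays and were tested, out of 15381 tested probe sets in all. Each array held RNA from 23 to 85 GFP-positive neurons of 1 G42 mouse, picked by hand after slices were treated with protease and dissociated. G42 is a transgenic line in which a Gad1 promoter drives GFP in a subset of interneurons, most of them of the parvalbumin class. All groups carried the same transgene and received no treatment. They were postnatal day 7 (P7), P10, P15, P25 and P40, the last spanning P40 to P45, with 3 animals at each age. The number of arrays limits the precision.

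Neurexins are presynaptic membrane proteins whose extracellular parts reach across the synaptic cleft. Neuroligins are their postsynaptic partners, and among them neuroligin 1 is best known from excitatory synapses, neuroligin 2 from inhibitory synapses and neuroligin 3 from both. Neurexophilin 1 is a secreted glycoprotein that binds tightly to the long, alpha form of neurexins and is made by subsets of inhibitory neurons. In an interneuron, neurexins act mainly at its output terminals and neuroligins at the inputs it receives.

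RefSeq promoter windows (build GRCm38.p6) are shown for Nxph1, with 1 window, and Nlgn1, with 2, as genes with a probe set called lower at an older age. Windows were found for 4 of 6 member genes, and those of Nrxn3, of which a dimmer probe set was called higher at P40, and of Nlgn2 are described without their letters. Each covers 250 bases before to 50 bases after a transcript start, and is written 5′ to 3′ on the gene's strand. Capitals mark CCAAT or GGGCGG on either strand, ATTGG and CCGCCC being the other-strand forms.
Nxph1 at chr6:8949769-8950068, plus strand: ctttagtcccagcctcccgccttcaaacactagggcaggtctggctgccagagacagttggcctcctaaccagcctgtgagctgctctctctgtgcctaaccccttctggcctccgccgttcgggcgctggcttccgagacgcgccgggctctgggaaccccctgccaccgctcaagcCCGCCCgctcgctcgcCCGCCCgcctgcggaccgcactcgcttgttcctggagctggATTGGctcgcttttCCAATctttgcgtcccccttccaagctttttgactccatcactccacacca
Nlgn1 at chr3:26331860-26332159, minus strand: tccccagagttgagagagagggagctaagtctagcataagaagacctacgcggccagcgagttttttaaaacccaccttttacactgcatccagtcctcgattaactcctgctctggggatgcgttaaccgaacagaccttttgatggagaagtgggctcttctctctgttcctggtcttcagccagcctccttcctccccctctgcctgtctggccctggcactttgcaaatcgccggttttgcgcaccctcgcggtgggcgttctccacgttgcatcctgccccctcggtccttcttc
Nlgn1 at chr3:26153937-26154236, minus strand: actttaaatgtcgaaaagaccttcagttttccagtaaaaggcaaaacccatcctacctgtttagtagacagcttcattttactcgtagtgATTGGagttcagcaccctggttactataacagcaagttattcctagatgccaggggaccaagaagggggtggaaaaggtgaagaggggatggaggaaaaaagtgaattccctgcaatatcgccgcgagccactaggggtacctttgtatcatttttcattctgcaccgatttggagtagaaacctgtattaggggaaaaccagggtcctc

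The Nxph1 window was 64.0% G or C and held 21 CpG dinucleotides, against medians of 52.7% and 7 over all 32851 windows of that length. It held CCAAT on 2 occasions and GGGCGG on 2, counting both strands. The upstream Nlgn1 window held 14 CpG dinucleotides and none of the motifs, and the other held 6 and a single CCAAT. Over all windows, 37.4% held CCAAT and 35.7% held GGGCGG. Neither TATAAA, present in 13.6% of all windows, nor TGACGTCA, present in 1.79%, was found in any member window. The 3 Nrxn3 windows held 2, 6 and 16 CpG dinucleotides and the Nlgn2 window held 26. Which transcript start feeds the RNA read by a probe set was not analysed here.

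Of 13 markers of the parvalbumin class, 10 were over 5 on all P7 arrays and 12 on all arrays of each later age. Pvalb, the calcium-binding protein of these neurons, averaged 3.62 at P7, which is background, and 9.49 at P10, had reached 13.12 by P15, and stood at 14.11 in P25 and 14.28 in P40 cells, and Gad1, a GABA-synthesizing enzyme, was at 13.47 or more on all arrays. Slc17a7, which loads glutamate into vesicles in excitatory neurons, lay between 2.41 and 2.62. Of 9 excitatory markers, 1, Cux2, was over 5 on all arrays of each age, with age means of 10.60 to 10.94. Fezf2 and Rorb reached 7.23 and 6.92 on their highest arrays. Of 12 markers of other interneuron classes, 6 were over 5 on all arrays at P7 and at P10, and 5 at each later age, with age means of 10.92 to 12.71 for the peptide Npy and of 9.35 to 12.04 for Reln. Sst, a peptide of the somatostatin class, lay between 9.20 and 13.04 on 14 arrays and at 1.72 on P40 replicate 1. The 3′ beta-actin control was lowest at P25, where P25 replicate 2 read 11.00, and spiked controls were dim on P15 replicates 2 and 3, at 2.44 and 2.41, against 8.77 or more on the others. Where leaving out one of these arrays, or both P15 arrays, ended a call named below, this is said beside it.

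Between P40 and P7, Nlgn3 and the brighter Nxph1 probe sets were lower at the older age, and the dimmest tested Nrxn3 probe set was higher. Nrxn2, Nlgn2, the brighter Nrxn3 probe sets and the dimmest Nxph1 probe set did not pass the test. Nlgn1 was lowest at P25. In limma's fit over all tested probe sets, 3 of 11 member probe sets were called lower at P40 than at P7, and 1 was called higher, at a Benjamini-Hochberg adjusted p under 0.05. Over all tested probe sets 15.9% were called lower and 26% higher, 41.9% in either direction. The median difference of the members was -0.31 on the log2 scale, beside 0.18 over all tested. For any difference between the 5 ages, the moderated F test called 5 of 11 member probe sets, beside 44.6% of all tested. In 4 of the 11 the P40 and P7 arrays did not overlap. The share without overlap over all tested probe sets was not computed, so this count is a description only.

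**Figure D1:**
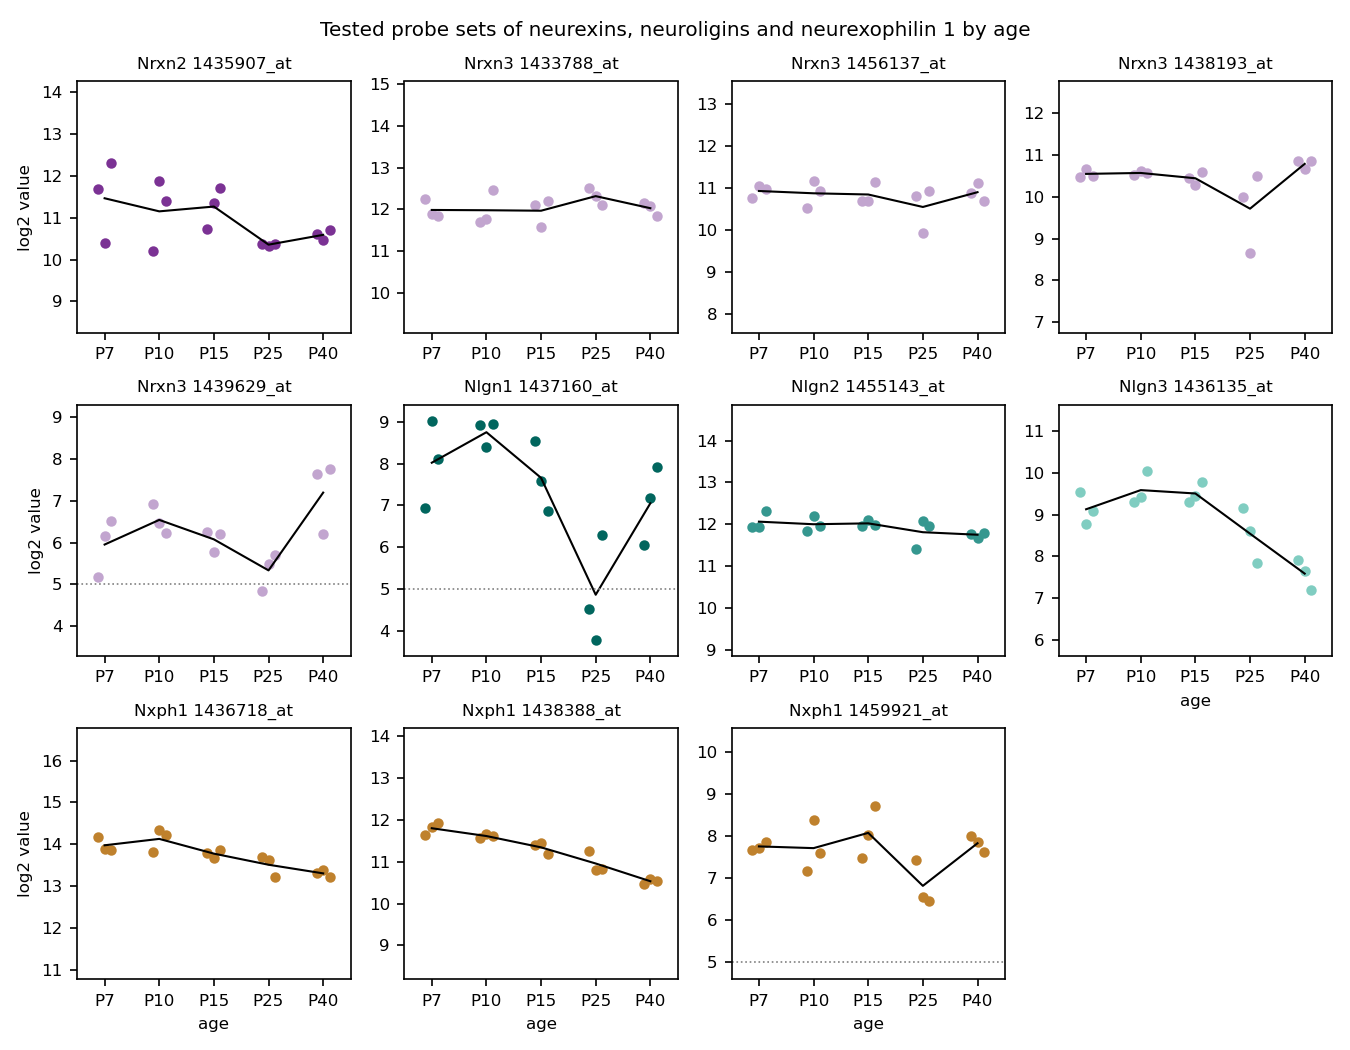
Log2 values of the 11 tested member probe sets on each of 15 arrays (points, in replicate order within an age) against age, with lines through the means of 3 arrays; each vertical axis spans 6 log2 units, and the dotted line is the limit of 5. Nxph1 1436718_at and 1438388_at and Nlgn3 end lowest at P40, while Nlgn1 has its lowest mean, 4.87, at P25.

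Nxph1, the secreted neurexin ligand, was measured by 3 probe sets, all of them tested. The brightest, 1436718_at, read 14.17, 13.89 and 13.87 at P7, 13.82, 14.34 and 14.23 at P10, 13.80, 13.68 and 13.85 at P15, 13.70, 13.62 and 13.22 at P25, and 13.30, 13.39 and 13.22 at P40. All 3 P40 arrays lay below all P7, P10 and P15 arrays. P40 minus P7 was -0.67 on the log2 scale (SE 0.15, adjusted p = 0.00308), a 1.59-fold fall by limma. P25 was also lower than P7, by a log2 difference of -0.46 (adjusted p = 0.0271), a call lost without P7 replicate 1 (-0.37) or P25 replicate 3 (-0.32), with no filter on low values (adjusted p = 0.0597), with no trend in the prior variance (0.0956) and with only the 2 ages in the fit (0.0617). P25 minus P10 was -0.62 (adjusted p = 0.00971, and 0.0569 with only the 2 ages in the fit), and P40 minus P10 was -0.82 (adjusted p = 0.00143). In pools of picked cells, fewer expressing cells and less RNA per cell cannot be told apart.

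Nxph1 1438388_at moved further. It read 11.65, 11.83 and 11.92 at P7, 11.56, 11.67 and 11.60 at P10, 11.40, 11.45 and 11.19 at P15, 11.26, 10.79 and 10.82 at P25, and 10.47, 10.60 and 10.53 at P40. Its age means fell at each step, although no single step passed the test. P40 minus P7 was -1.27 (SE 0.17, adjusted p = 4.87e-05 by limma), 2.41-fold lower, and P40 lay below every array of the 4 younger ages. P25 was already lower than P7 (log2 difference -0.84, adjusted p = 0.00139) and than P10 (-0.66, adjusted p = 0.0119), the second call being lost without P25 replicate 2 (-0.57) and with only the 2 ages in the fit (adjusted p = 0.0571). P40 was also called lower than P10 (log2 difference -1.08, adjusted p = 0.00044) and than P15 (-0.81, adjusted p = 0.0138). The call against P15 was lost without P15 replicate 2, P40 replicate 1 or P40 replicate 3, and without P15 replicates 2 and 3 together (log2 differences from -0.89 to -0.76 when single arrays were left out, and -0.86 without both). It was also lost with the number of cells picked as a covariate (-0.79, adjusted p = 0.0658).

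The dimmest Nxph1 probe set, 1459921_at, did not follow the other two. It read 7.67, 7.72 and 7.87 at P7, 7.16, 8.38 and 7.60 at P10, 7.48, 8.03 and 8.73 at P15, 7.44, 6.55 and 6.44 at P25, and 7.999, 7.87 and 7.62 at P40. P40 minus P7 was 0.076 (95% interval -0.75 to 0.90, adjusted p = 0.892 by limma), and its sign turned under 4 of 28 other settings. Its lowest mean, 6.81, was at P25, and P25 minus P15 was -1.27 (adjusted p = 0.0803). That difference was -0.67 without P15 replicates 2 and 3 (adjusted p = 0.732), while it passed the test without P15 replicate 1 (-1.57, adjusted p = 0.0466) and with array weights (-1.50, adjusted p = 0.00894). The change of 1438388_at from P7 to P40 was more negative than that of 1459921_at by 1.34 and than that of 1436718_at by 0.60. Over 9 such pairs of probe sets of 1 gene, the exact two-sided permutation test of 3 against 3 arrays gave 0.1 for all 3 Nxph1 pairs, the smallest p it allows, and 0.3 after adjustment. On P40 replicate 1, the array with Sst at background, 1436718_at read 13.30 and 1459921_at read 7.999. Probe set 1438388_at read 10.47 there, its lowest value over the 15 arrays. Any link between the Sst and Nxph1 levels was not tested.

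The neurexins were Nrxn2, with 1 tested probe set, and Nrxn3, with 4. Both encode presynaptic receptors for neuroligins and for secreted ligands, with an upstream promoter for the long alpha form and an inner promoter for the short beta form. Nrxn2 read 11.68, 10.40 and 12.32 at P7, 10.19, 11.87 and 11.39 at P10, 10.74, 11.36 and 11.70 at P15, 10.36, 10.33 and 10.38 at P25, and 10.61, 10.47 and 10.70 at P40. The P25 and P40 arrays lay close together, from 10.33 to 10.70, while those of P7 spread from 10.40 to 12.32. The P25 arrays all lay just below the P7 arrays, and the P40 arrays overlapped them. P25 minus P7 was -1.11 and was not called (adjusted p = 0.0642 by limma). P40 minus P7 was -0.87 (SE 0.45, 95% interval -1.84 to 0.088, adjusted p = 0.133 by limma). Without P7 replicate 2, the lowest of its age, the difference was -1.41 and passed the test (adjusted p = 0.017), and without P7 replicate 3 it was -0.45.

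Nrxn3 stayed high at all ages in 3 of its tested probe sets. Probe set 1433788_at ranged from 11.59 to 12.52 over the 15 arrays, and its P40 minus P7 difference was 0.042 (95% interval -0.44 to 0.52, adjusted p = 0.897 by limma). Probe set 1456137_at ranged from 9.92 to 11.17, with a difference of -0.028 (-0.60 to 0.55, adjusted p = 0.942). The signs of both turned under some settings. Probe set 1438193_at lay between 10.29 and 10.85 on 13 arrays and read 9.99 and 8.66 on P25 replicates 1 and 2. Its P40 minus P7 difference was 0.24 (-0.48 to 0.96, adjusted p = 0.595). These intervals leave room for changes of up to about 1 log2 unit.

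The fourth, dimmer Nrxn3 probe set was higher at P40. Probe set 1439629_at read 5.19, 6.16 and 6.51 at P7, 6.93, 6.47 and 6.23 at P10, 6.26, 5.77 and 6.21 at P15, 4.83, 5.48 and 5.70 at P25, and 7.63, 6.20 and 7.76 at P40. P40 replicates 1 and 3 were the highest of all arrays, while P40 replicate 2 lay within the P7 range. P40 minus P7 was 1.24 (SE 0.45, adjusted p = 0.0398 by limma), 2.36-fold. The call was lost without P7 replicate 1 (log2 difference 0.86), P7 replicate 2 (1.35), P40 replicate 1 (1.02) or P40 replicate 3 (0.96). It was also lost without P15 replicates 2 and 3 together (adjusted p = 0.0567), and with both other scalings of the arrays. Without P25 replicate 2 (1.24) the adjusted p rounded to 0.05, at the threshold. Its change was set against those of the 3 bright Nrxn3 probe sets in the exact permutation tests, whose p ran from 0.2 to 0.3 (0.45 after adjustment). P40 minus P25 was 1.86 and was not called (adjusted p = 0.0555 by limma), but it passed the test under 6 of 27 other settings.

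The neuroligins differed among themselves. Nlgn3, found at excitatory and inhibitory synapses, read 9.53, 8.77 and 9.08 at P7, 9.30, 9.41 and 10.04 at P10, 9.31, 9.43 and 9.77 at P15, 9.17, 8.62 and 7.84 at P25, and 7.90, 7.66 and 7.20 at P40. The P40 arrays lay below all arrays of P7, P10 and P15. P40 minus P7 was -1.54 (SE 0.35, adjusted p = 0.00294 by limma), a 2.90-fold fall. Against P10 and P15 the log2 differences were -1.995 (adjusted p = 0.000953) and -1.91 (adjusted p = 0.00614), and without P15 replicates 2 and 3 the difference from P15 was -1.72 and was not called (adjusted p = 0.139). With the number of cells picked as a covariate it was -1.64, also not called (adjusted p = 0.0536). P25 minus P10 was -1.04 (adjusted p = 0.0398), a call that leaving out any 1 of the P10 arrays, P15 replicate 2, P25 replicate 2, P25 replicate 3 or P40 replicate 2 ended (log2 differences from -1.18 to -0.69), as did leaving out P15 replicates 2 and 3 (adjusted p = 0.0582). That call was also lost with no filter (adjusted p = 0.0895 by limma), array weights (0.0538), the replicate block (0.0565) and only the 2 ages in the fit (0.104). The 6 oligodendrocyte precursor markers, a cell type that also uses Nlgn3, held no gene over 5 on all 3 arrays of any age, but 1 of them, Sox10, was over 5 on some array at P10, P15 and P40 (mean 5.23 at P10, and 6.25 on its highest array). Its part in the Nlgn3 result was not tested.

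Nlgn1, the neuroligin of excitatory synapses, fell to background on part of the P25 arrays. It read 6.94, 9.02 and 8.10 at P7, 8.92, 8.39 and 8.94 at P10, 8.53, 7.59 and 6.86 at P15, 4.52, 3.79 and 6.29 at P25, and 6.06, 7.18 and 7.91 at P40. The P25 arrays lay below all arrays of the 3 younger ages, and P25 replicate 3 overlapped P40. P25 replicates 1 and 2 were under the limit of 5, where differences are not measured, so values under 5 were also set to 5. P25 minus P7 was then -2.59 (SE 0.60, adjusted p = 0.00393 by limma) and P25 minus P10 was -3.32 (adjusted p = 0.00144), against -3.15 and -3.88 on the values as deposited (adjusted p = 0.00215 and 0.00112). On deposited values both calls were kept when any single array was left out. P25 minus P15 was -2.23 with values under 5 set to 5 (adjusted p = 0.0489) and -2.79 as deposited (adjusted p = 0.032). The call on deposited values was lost without any 1 of the P15 arrays, P25 replicate 1 or P25 replicate 2, without P15 replicates 2 and 3 together (adjusted p = 0.15), with no filter, with cells picked as a covariate, with the replicate block (adjusted p = 0.0517) and with only the 2 ages in the fit. P40 minus P25 was 2.18 as deposited and was not called (adjusted p = 0.13), and was 1.62 with values under 5 set to 5 (adjusted p = 0.229). On deposited values it passed the test with no filter (adjusted p = 0.0478), with array weights (0.00479) and without P25 replicate 3 (0.0277). The difference of P40 from P7 was -0.97 (95% interval -2.41 to 0.47, adjusted p = 0.265), and -0.48 without P40 replicate 1.

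The low Nlgn1 values at P25 came together with low 3′ beta-actin. The 3′ beta-actin level averaged 14.65 ± 0.34 at P7 and 14.34 ± 0.32 at P10, and was 13.84 ± 0.07 by P15. It was then 12.19 ± 1.04 at P25, and 13.73 ± 0.33 in P40 cells (SD, n = 3 each). All 3 P25 arrays, at 12.88 or less, lay below all arrays of the other ages, at 13.37 or more, so this level and the age P25 can hardly be told apart in 1 fit, and standard errors grew. With the level as a covariate, Nlgn1 P25 minus P7 was -1.17 (SE 1.28, adjusted p = 0.694), and all 8 member calls that compare P25 with a younger age were lost. The differences of Nlgn1 and Nxph1 1438388_at became smaller, the second from P7 being -0.51 with the covariate and -0.84 without. Those of Nxph1 1436718_at became larger, at -0.76 from P7 and -0.87 from P10, as did that of Nlgn3 from P10, at -1.48, and their calls were lost with SEs of 0.31, 0.28 and 0.65. Over all tested probe sets the share called in P25 minus P7 was then 4.93%, beside 38.9% without the covariate. The P40 minus P7 falls of Nlgn3 and of both Nxph1 probe sets kept their calls with it. With the 3′ minus 5′ difference as the covariate instead, Nlgn1 P25 minus P7 was -2.92 (SE 0.64, adjusted p = 0.00306 by limma). Of 7 oligodendrocyte markers, the myelin genes Mbp and Mobp had their highest means at P25. The summed level of the 7 was 11.02 to 12.21 at P25 and 8.98 to 11.09 at the other ages, with 3 of 7 over 5 on all P25 arrays and 2 of 7 on all arrays of each other age. Mobp averaged 7.47 at P25 and 3.14 or less otherwise, and Mbp averaged 11.21 at P25 and 8.22 or less otherwise. Cnp was lower at P25 (9.79) than at P7 (10.75), and Mog, Mag, Cldn11 and Opalin had means at background at all ages. Of 9 astrocyte markers, 2 were over 5 on all P25 arrays and 1 on all P10 arrays. The summed level of the 9 was 8.24 to 10.40 at P25, 8.67 to 10.05 at P10 and 6.44 to 8.52 at the other ages. The part of these transcripts in the Nlgn1 result was not tested.

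**Figure D2:**
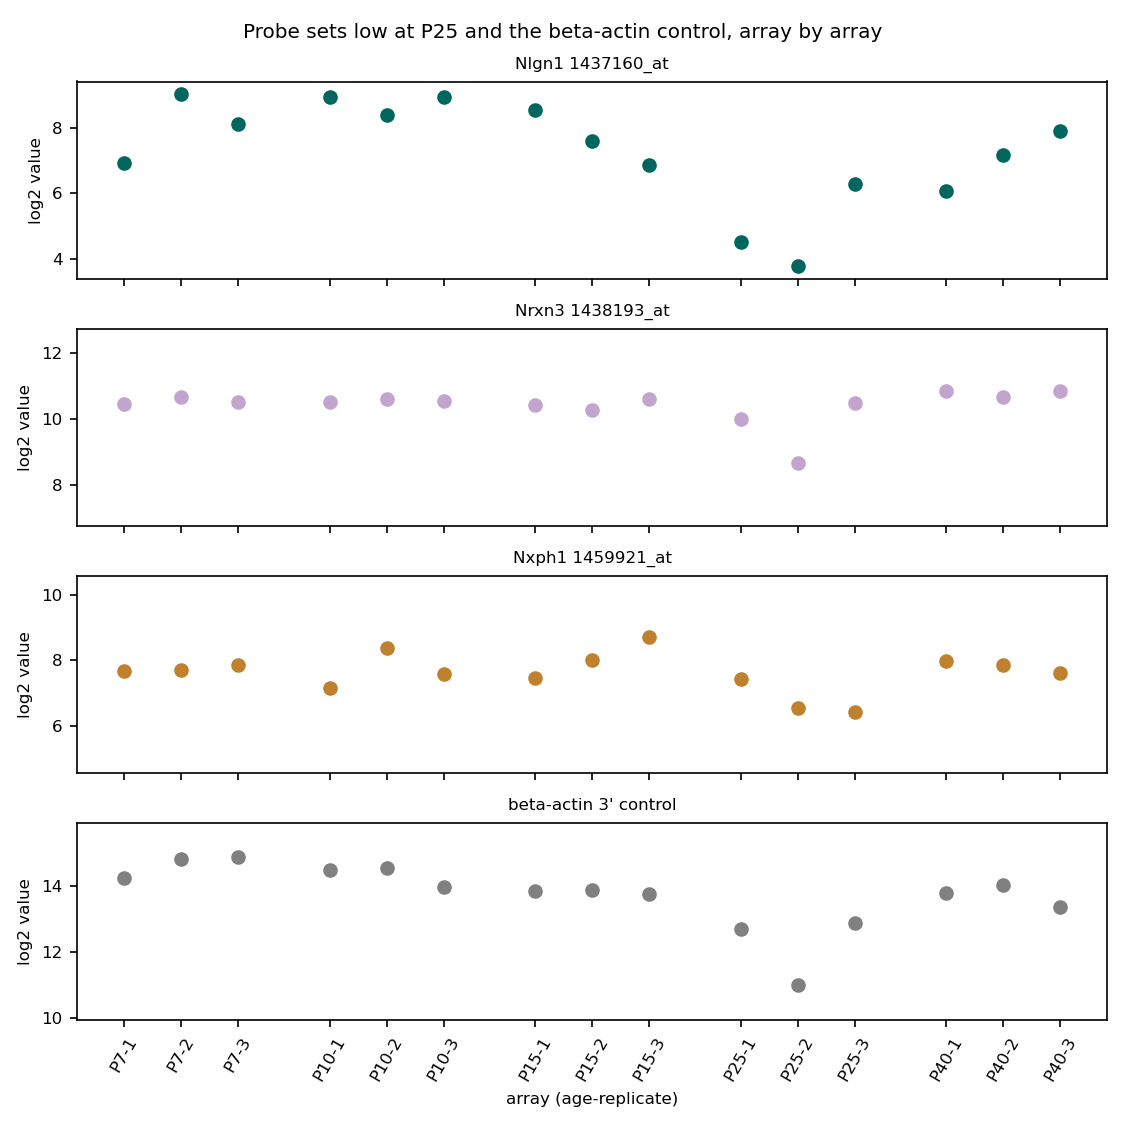
Log2 values of Nlgn1 1437160_at, Nrxn3 1438193_at, Nxph1 1459921_at and the 3′ beta-actin control (points) on the 15 arrays, in order of age and replicate; each vertical axis spans 6 log2 units. P25 replicate 2 is the lowest array for Nlgn1 (3.79), for this Nrxn3 probe set (8.66) and for beta-actin (11.00).

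Nlgn2, the neuroligin of inhibitory synapses, did not pass the test between any 2 ages. It read 11.94, 11.94 and 12.31 at P7, 11.84, 12.20 and 11.97 at P10, 11.97, 12.11 and 11.99 at P15, 11.41, 12.08 and 11.95 at P25, and 11.78, 11.68 and 11.80 at P40. The P40 arrays lay below all P7 arrays, but the difference was -0.31 (SE 0.18, 95% interval -0.71 to 0.082) and was not called (adjusted p = 0.189 by limma).

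The remaining 6 probe sets were at background on all 15 arrays and were not tested. They were Nrxn2 1455499_at, Nrxn3 1432931_at, Nlgn1 1421648_at, Nlgn2 1460013_at, and Nlgn3 1453756_at and 1456384_at. The highest value among them was 4.06, for Nlgn3 1456384_at at P7, and the others stayed at or below 2.86. Each of these genes was therefore read through its other probe sets.

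Compared across all pairs of ages, member calls were lower at the older age except for Nrxn3 1439629_at. Between P10 and P7 none of 11 was called by limma, and none had an unadjusted p under 0.05, beside 2.77% of all tested called. P15 minus P7 gave 0 calls (1 at an unadjusted p under 0.05), beside 29.3% of all tested, and P15 minus P10 likewise gave 0 (1), beside 9.99%. P25 minus P7 gave 3 calls, all lower, beside 38.9%, and P25 minus P10 gave 4, all lower, beside 26.7%. P25 minus P15 gave 1 call, beside 4.24%, and P40 minus P25 gave 0 (6 at an unadjusted p under 0.05), beside 1.74%. All these shares are of calls at an adjusted p under 0.05. No share of all tested was computed to set beside the counts at an unadjusted p. P40 minus P10 gave 3 and P40 minus P15 gave 2, all lower, beside 30.3% and 4.43%.

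Levels were ordered by age for each probe set. The lowest mean was at P25 for 6 of the 11, at P40 for 4 and at P15 for 1, and the highest was at P7 for 4, P10 for 3, P40 for 2, and P15 and P25 for 1 each. No pair of neighbours in any of these orders passed limma's test, so only ages further apart in an order were told apart. How often each age was lowest or highest over all tested probe sets was not counted.

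**Figure D3:**
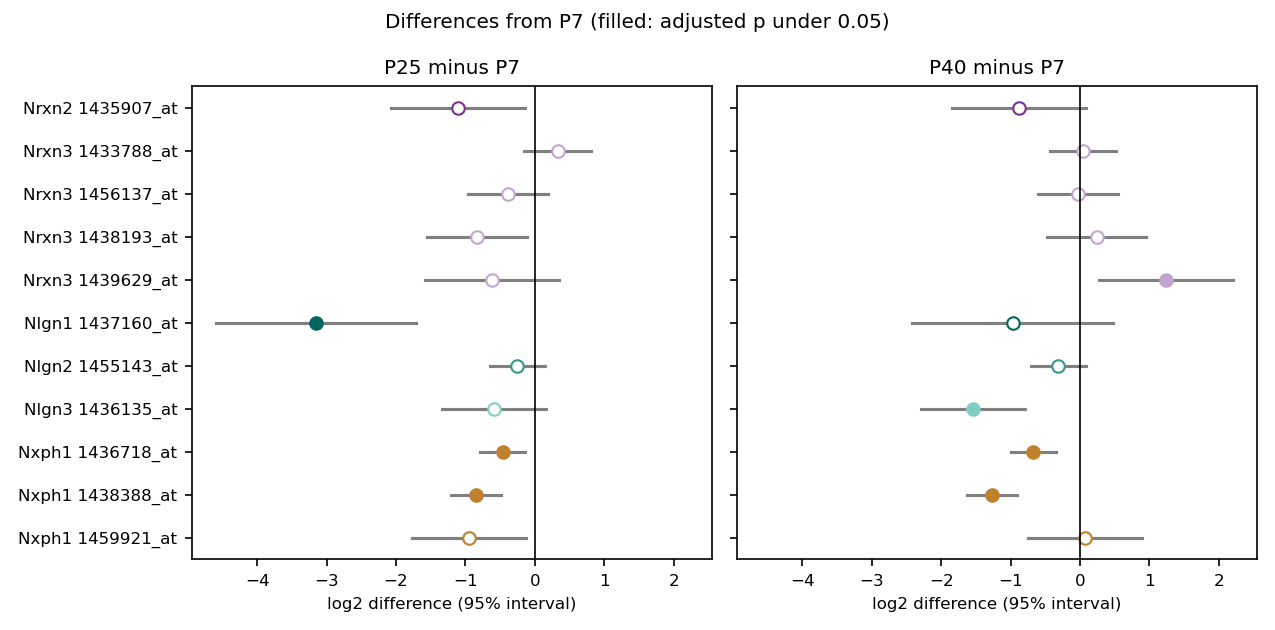
Log2 differences of the 11 tested member probe sets (horizontal axis, with 95% intervals as lines) for P25 minus P7 on the left and P40 minus P7 on the right; filled points have an adjusted p under 0.05. Nlgn1 stands at -3.15 on the left, drawn from values as deposited (-2.59 with values under 5 set to 5), and Nlgn3 (-1.54) and Nxph1 1438388_at (-1.27) are the lowest on the right.

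Over the arrays the Pearson r of Nlgn3 was 0.86 with Nxph1 1436718_at, 0.78 with 1438388_at and 0.31 with 1459921_at. These are descriptions over 15 arrays that share their libraries and ages. The lowest r among members was -0.56, between Nrxn3 1433788_at and Nlgn1. The genes most like each member over the 15 arrays were taken by Pearson r with its brightest probe set. For Nxph1 they were D630004K10Rik (0.95), Tmem47 (0.94) and Nrep (0.93), and for Nlgn3 the DNA methyltransferase Dnmt3a (0.94), Fgd4 (0.93) and Bdh1 (0.91). For Nlgn1 they were Alcam (0.92), Sema5a (0.91) and the calcium pump Atp2b1 (0.91), each with its lowest mean at P25. For Nrxn2 they were Ppat (0.88), Fut11 (0.88) and Tmem130 (0.87), for Nrxn3 Fyttd1 (0.88), Etaa1 (0.85) and Zfyve16 (0.85), and for Nlgn2 Pgd (0.87), Ywhab (0.87) and Trim9 (0.81).

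Other listed genes, of this adhesion system and of other trans-synaptic systems, moved both ways between P40 and P7. Of 87 genes listed, 36 of them from the other systems, 81 were annotated. Of these, 65 were tested through their brightest probe set, 28 of them from the other systems. Read in this way, 16 were called higher, 13 lower and 36 neither. By that reading 27% of all tested genes were called higher and 17.3% lower. Of the members' close relatives, Nxph2 averaged 7.45 at P40 and 7.76 at P7 (log2 difference -0.31, adjusted p = 0.704 by limma), and Nxph3 and Nxph4 were at background.

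Among 14 tested genes for other extracellular ligands of neurexins, 5 were higher at P40, 3 lower and 6 not called (median log2 difference -0.0074). Clstn3, a calsyntenin, read 7.98 ± 0.61 at P40 and 3.36 ± 0.55, at background, in P7 cells (SD, n = 3 each; adjusted p = 1.71e-05 by limma); with values under 5 set to 5 the log2 difference was 2.98. Lrrtm2, a postsynaptic leucine-rich repeat protein, rose 4.15-fold (SE 0.36 on the log2 scale, adjusted p = 0.000446 by limma). Of its 3 tested probe sets, 2 were called higher. Cbln2, a secreted cerebellin, read 2.60 ± 0.14, at background, in P40 cells and 6.85 ± 1.66 at P7 (adjusted p = 9.71e-05), and with values under 5 set to 5 the log2 difference was -1.88 (adjusted p = 0.0154). Dag1, dystroglycan, fell 2.28-fold by its brightest probe set (adjusted p = 0.000468 by limma), and of its 4 tested probe sets only this 1 was called.

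Of 19 tested cytoplasmic scaffolds, 6 were higher, 5 lower and 8 not called (median 0.35). Iqsec3, an exchange factor that binds gephyrin at inhibitory synapses, rose 5.33-fold (SE 0.25, adjusted p = 5.49e-06 by limma). The scaffold Magi1 rose 3.93-fold (adjusted p = 0.00421 by limma), with 2 of its 3 tested probe sets called higher. Cask and Lin7c, which form a complex on the neurexin tail, were 6.52-fold and 11.9-fold lower (adjusted p = 5.34e-05 and 0.00196). The Lin7c difference of -3.58 became -2.97 without P7 replicate 1 and -4.19 without P7 replicate 3.

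Of 3 tested extracellular modulators of neuroligins, 1 was higher, 1 lower and 1 not called (median -1.07). Sparcl1, a secreted protein that bridges neurexins and neuroligins, rose 17.3-fold to 13.57 ± 0.46 at P40, against 9.46 ± 1.18 at P7 (adjusted p = 6.48e-05 by limma; log2 difference 4.11, and 4.72 without P7 replicate 1). Adam10, a protease that sheds neuroligins, fell 3.16-fold (adjusted p = 0.00364). Of 28 tested genes of other trans-synaptic systems, 4 were higher, 4 lower and 20 not called (median -0.34). Lrrc4, a netrin-G ligand, rose 6.61-fold and Slitrk1 rose 2.97-fold (adjusted p = 4.66e-05 and 0.00616). Lrfn4 read 4.47 ± 0.76 at P40, a mean under the limit of 5, and 7.22 ± 0.30 at P7 (adjusted p = 9.31e-05 by limma). The size of its fall is therefore not measured. The receptor phosphatase Ptprf fell 10.4-fold (adjusted p = 0.00166), a log2 difference of -3.38 that became -2.43 without P40 replicate 1 and -4.17 without P40 replicate 2. With the beta-actin 3′ minus 5′ difference as a covariate, a measure of RNA quality that averaged 3.93 at P40 and 5.77 at P7, 3 of these calls were lost. The log2 difference of Magi1 was then 0.89 (1.98 without it), that of Adam10 -1.34 (-1.66 without it, adjusted p = 0.0726 with it) and that of Slitrk1 1.16 (1.57 without it). The Slitrk1 call was also lost with the 3′ beta-actin level (1.08).

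**Figure D4:**
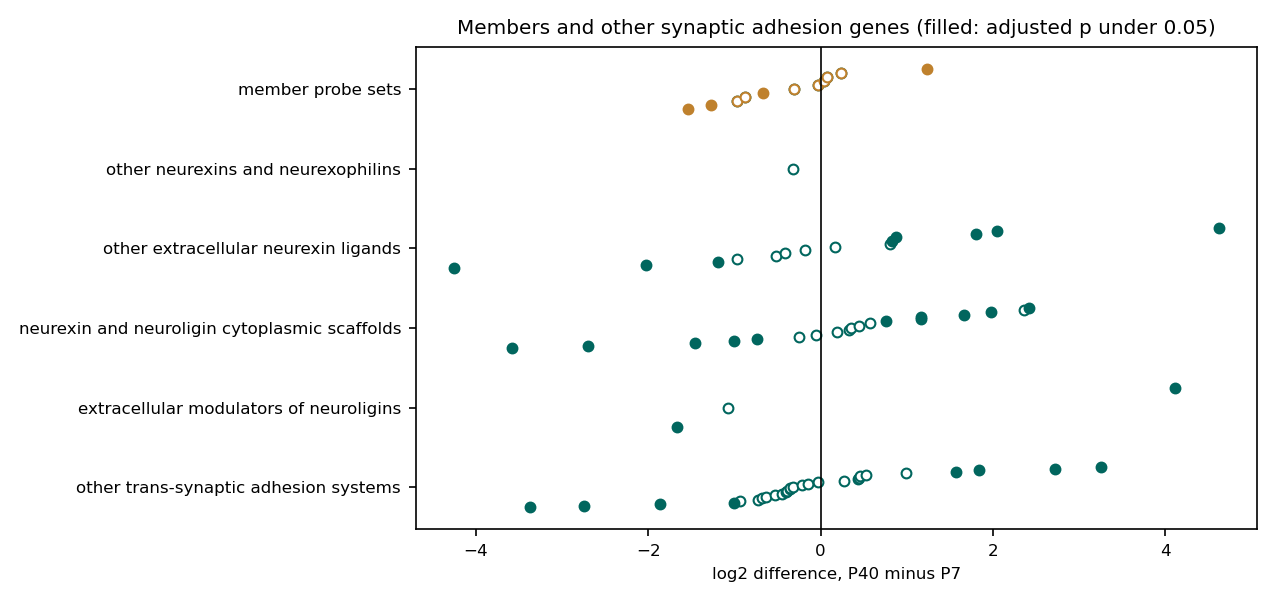
Log2 differences, P40 minus P7, of the 11 tested member probe sets (top row) and of the 65 tested genes of 5 lists (rows below). The lists hold genes of this adhesion system and of other trans-synaptic systems. Filled points have an adjusted p under 0.05, and the vertical spread within a row only separates points. Members lie between -1.54 and 1.24. Differences are drawn from values as deposited, and the outermost points, Cbln2 and Clstn3, have 1 age at background, so how far out they lie is not measured.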

How the data were processed

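The deposited values are log2 expression per probe set, made by the authors with GCRMA per the submitters' processing notes (version not given in the sources used here), from RNA amplified in 2 rounds on Affymetrix whole-genome mouse arrays. They were used as deposited, and 0 columns belonged to other samples. Probe sets were named from the platform annotation. Of 45101 probe sets, 932 with several genes and 9224 controls or probe sets with no gene were left out.

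Probe sets over 5 in at least 3 of 15 arrays entered limma 3.58.1 (R 4.3.3), with 1 mean per age, a prior variance that follows the mean level, and 10 residual degrees of freedom. Tests of all 10 pairs of ages were two-sided, and p-values were adjusted by Benjamini-Hochberg over 15381 probe sets within a contrast and for the F test. ± is the SD over 3 arrays, and SE is limma's moderated standard error of a difference in log2 values. Folds are given only where both means exceed 5. Genes of the lists were read through their brightest tested probe set. The fit was tested on simulated data. Figures used Python 3.11.15, pandas 2.3.3 and matplotlib 3.10.9.

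Members and lists were chosen with earlier results of these data known. Named were all member probe sets and, in each list, the 2 called genes with the smallest adjusted p per direction. For each member the 3 most correlated genes were also named. Pvalb, Sst, Gad1 and Slc17a7 were named regardless. Mobp, Mbp, Cnp, the other oligodendrocyte markers, Npy, Reln, Sox10, Cux2, Fezf2 and Rorb were named after their values were seen. Some genes of the lists are not reported here. Replicate numbers did not pair the arrays: same-numbered arrays' deviations correlated from -0.42 to 0.28 (median -0.06). Alternatives covered scaling, filters, weights, covariates, a replicate block and leaving out each array.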

Additional observations from a re-analysis of the deposited data

How the results depend on the processing

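Of 17 called member differences recomputed under up to 29 other settings, 486 values in all, 431 kept direction and call, 55 lost the call and 0 turned. The P40 minus P7 falls kept their calls under all settings run: Nlgn3 ranged from -2.05 to -1.34, Nxph1 1436718_at from -0.89 to -0.58 and Nxph1 1438388_at from -1.48 to -1.14. Nlgn1 P25 minus P7 ranged from -3.87, on values partly at background, to -1.17 and lost its call only with the 3′ beta-actin level as a covariate, which, like leaving out P15 replicates 2 and 3, was chosen after seeing the data. The Nrxn3 1439629_at call was lost under 10 of 27 settings (adjusted p 0.00683 to 0.154), counting that without P25 replicate 2, where the adjusted p rounded to 0.05. The P40 minus P7 difference of Nrxn3 1438193_at was called with the 3′ beta-actin level as a covariate (0.86, adjusted p = 0.0345).

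The number of members called higher in P40 minus P7, 1 as reported, was 0 with quantile normalization, equal array medians, a filter at 7, 1 probe set per gene, only the 2 ages compared, or P15 replicates 2 and 3 left out, and 0 to 1 when single arrays were left out. The number lower, 3, was 6 with no filter, where probe sets at background entered. The F test's 5 was 3 with 1 probe set per gene, 8 with array weights and 3 with the 3′ beta-actin level. P15 minus P10, at 0, was 1 with equal array medians and 1 with array weights. P25 minus P15, at 1, was 0 with no filter, cells picked as a covariate, only the 2 ages compared, the 3′ beta-actin level, or P15 replicates 2 and 3 left out, 5 with array weights, and 0 to 1 when single arrays were left out. With the replicate block it was also 0; because the numbers do not pair the arrays, this says nothing of a weaker effect. P40 minus P25, at 0, was 5 with no filter, 1 with values under 5 set to 5, 4 with array weights, and 0 to 3 when single arrays were left out. The 29 list genes called were 19 with the beta-actin 3′ minus 5′ difference as a covariate, 9 of them higher. Apart from the changes in the filter, the set of genes and the samples, the cause was not tested.

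Signs near 0 turned in P40 minus P7, none of them called. Nrxn3 1433788_at (0.042) gave -0.12 with quantile normalization, -0.17 with equal array medians, -0.0295 with cells picked, -0.16 with beta-actin 3′ minus 5′, -0.086 with the 3′ beta-actin level, and -0.0345 to 0.17 with single arrays left out. Nrxn3 1456137_at (-0.028) gave 0.0642 with cells picked, 0.40 with the 3′ beta-actin level, and -0.14 to 0.0773 with single arrays left out. Nxph1 1459921_at (0.076) gave -0.15, -0.14 and -0.39 with quantile normalization, equal array medians and beta-actin 3′ minus 5′, and -0.0095 to 0.18 with single arrays left out. The median of all tested probe sets, 0.18 in P40 minus P7, was 0.011 after quantile normalization and -0.033 after equal array medians, and the share of calls that were higher was 52.8% and 50.5%, against 62.0% as deposited. Relative to that shift Nlgn3 stood at -1.75 under both scalings.

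Depth has no counterpart on arrays. Probe sets at background give no difference, and with 3 arrays an age the 95% intervals of all member differences not called in P40 minus P7 reach 0.5 log2 units or more.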
